A study of Mus musculus with 18 samples.

Results

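The genes described here are those that regulatory T (Treg) cells of the lymph node express, followed into Treg cells of peripheral blood. They were chosen by their level in the node alone: a gene entered when its mean over the 3 lymph node libraries was at least 10 TPM (a length-normalized share of the RNA of a library, scaled to the same total in each). Of 55487 gene IDs in the tables, 8421 met this rule, which is 50.4% of the 16694 IDs that were tested, and 7955 of them code for proteins. The rule keeps out genes that the node lacks, so that RNA of other blood cells weighs less in the comparison. It does not remove such RNA: the abundant myeloid genes S100a8, S100a9 and Lyz2 still pass. Genes meeting the rule held 92.9% of TPM in each blood library and 97.9% in each node library. Both groups are CD4+Foxp3+ cells freshly sorted from wild-type mice that received no treatment, with 3 poly(A) RNA libraries from peripheral blood and 3 from lymph node, within a series of 18 libraries from 6 sites that asks how circulating Treg cells differ from those in tissues. The labels do not give the age or sex of the animals, which nodes were taken, how Foxp3 was detected for the sort, or whether the libraries of a group came from separate animals or sorts. The p-values therefore measure only the spread between libraries of the same site, which may be technical. This spread was estimated over all 18 libraries of the 6 sites, not from blood and node alone.

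Treg cells are CD4 T cells that restrain immune responses, and the transcription factor Foxp3 maintains their identity together with signals from the T cell receptor and from interleukin 2. In lymph nodes they meet antigen and interleukin 2, and a fraction of them becomes effector Treg cells, which carry receptors such as ICOS, TIGIT and PD-1 and can make interleukin 10. Resting Treg cells enter nodes from blood through the chemokine receptor CCR7, leave through the sphingosine phosphate receptor S1PR1, and keep the transcription factor KLF2, which drives both routes.

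All 6 libraries carried the defining transcripts. Foxp3 (ENSMUSG00000039521, chrX:7573644-7595245, plus strand, mm10) stood at 85.4, 88.4 and 92.2 TPM in the blood libraries and at 239, 236 and 240.3 TPM in the node libraries. Cd4 stood at 150.5, 157 and 157 TPM in blood against 411, 397 and 401 TPM in node. Markers of other cells moved the opposite way in sum. The 14 neutrophil genes, all 14 of them called higher in blood, summed to 20395 ± 614 TPM (SD, n = 3) in blood and to 52.2 ± 28.3 TPM in node. The 14 monocyte and macrophage genes summed to 11866 ± 179 against 422 ± 6.74 TPM, the 8 platelet genes to 3094 ± 47.9 against 3.98 ± 2.94 TPM, and the 7 erythroid genes to 2928 ± 89.2 against 74.4 ± 1.47 TPM. The 10 B cell genes summed to 1426 ± 34.7 against 663 ± 7.07 TPM, the 10 cytotoxic cell genes to 730 ± 26.1 against 89.6 ± 4.40 TPM, and the 10 dendritic cell and MHC class II genes to 3048 ± 89.9 against 586 ± 2.64 TPM. All monocyte and macrophage, platelet and B cell genes were called higher in blood, and 5 of the 7 erythroid genes. Of the cytotoxic cell genes 8 were called higher and 1 lower, and of the dendritic cell and MHC class II genes 6 and 1. Defining markers of the 8 eosinophil and basophil genes were near the floor in node (2.46 ± 0.460 TPM) and low in blood (42.2 ± 8.17 TPM). No neutrophil, monocyte or B cell marker was listed at 0 in all 3 libraries of either group.

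Against these, 20 general T cell genes, among them Cd3e, Cd4, Lck and Zap70, summed to 3428 ± 37.6 TPM in blood and 7942 ± 23.8 TPM in node, and all 20 were called lower in blood. In bulk RNA, fewer cells of a type and less RNA per cell cannot be told apart. Since TPM values are shares of a fixed total, each comparison is given on 2 scales below: in TPM, and on a T cell scale on which every library was multiplied by 1 factor so that the geometric mean of TPM + 1 over these 20 genes was equal. That factor was 1.47 to 1.48 in the blood libraries and 0.675 to 0.682 in the node libraries. On the T cell scale a gene that fell merely in step with the general T cell genes stands near 0. Genes of that reference fell unequally themselves, from -1.82 for Zap70 to -0.33 for Trat1 on the log2 TPM scale, the latter with a call that was lost without any 1 library other than blood replicate 1 (adjusted p = 0.0523 to 0.132).

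**Figure D1:**
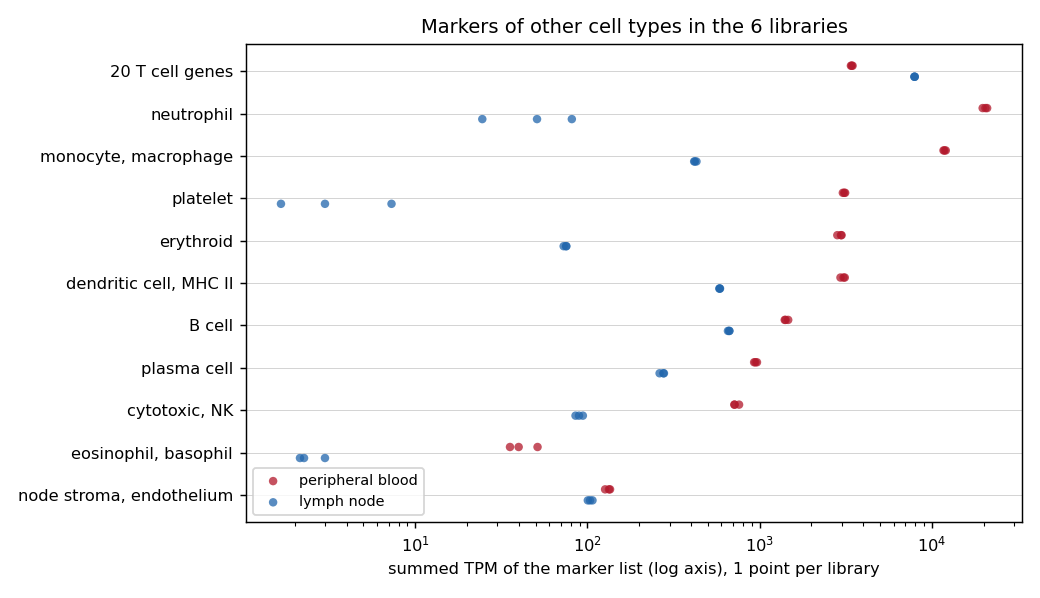
Summed TPM (log axis) of the 20 T cell genes and of marker lists of other cell types, 1 point per library, with blood in red and lymph node in blue. The neutrophil sums lie at 19741 to 20960 TPM in blood against 24.5 to 81.2 TPM in node, while the T cell genes lie lower in all 3 blood libraries than in any node library.

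Of the 8421 node-expressed genes, 3980 (47.3%) were called, meaning an adjusted p under 0.05 in limma fitted over all 16694 tested genes, of which 37.4% were called. In blood 2951 of them were lower (35% of the node-expressed genes, against 21% of all tested genes) and 1029 were higher (12.2%, against 16.4% of all tested genes). Their median log2 fold change was -0.30, and 50% of them lay between -0.61 and 0.06, while the median over all tested genes was -0.15. On the T cell scale the split turned over: 159 genes (1.89%, against 1.96% of all tested genes) were lower in blood and 6271 (74.5%, against 56.4%) were higher, 76.4% in all against 58.4% of all tested genes, with a median of 0.78 against 0.72 over all tested genes. Scaled by median ratios instead, 1560 (18.5%) were lower and 1629 (19.3%) higher. A fit on only the blood and node libraries called 4569 (54.3%) lower and 1512 (18%) higher, and library weights 4718 (56%) and 1561 (18.5%), both in TPM. For median ratios and these 2 fits the counts were taken for node-expressed genes only, without a share over all tested genes. Every one of the 1029 genes higher in TPM was also higher on the T cell scale. Of the 2951 lower in TPM, 159 stayed lower, 1152 were no longer called and 1640 were called higher. The 3 blood and the 3 node libraries did not overlap in 6514 genes (77.4%, against 64.5% of all tested genes), with blood below node in 4866 (57.8%, against 39.9%) and above it in 1648 (19.6%, against 24.6%).

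The choice by node level bears on these shares, because a gene that is low in node cannot be a member. They are therefore given as a description. Among the 8273 tested genes that missed the rule, 6.68% were lower and 20.7% higher in blood, 27.4% in all. A set chosen instead by a spleen mean of at least 10 TPM, which uses neither of the compared groups, held 8311 genes, of which 2859 (34.4%) were lower and 1130 (13.6%) higher. Calls in the downward direction became more frequent with the level in node. They made up 19.5% of 1922 genes at 10 to 20 TPM and 68.4% of 228 genes at 500 TPM and above. Between these 2 levels the median log2 fold change went from -0.24 to -0.49 and upward calls from 13.1% to 17.1%. The median standard error shrank from 0.239 to 0.052. Large differences were fewer: 533 genes were called lower by at least 1 log2 unit and 363 higher, and at 3 log2 units or more there were 15 and 33. Scaled to T cell genes, the same counts were 61 and 2785, and 9 and 126. These counts were taken for node-expressed genes only. The 5% and 95% points of their log2 fold changes were -1.14 and 0.9 in TPM, against -1.12 and 2.23 over all tested genes. On the T cell scale these points were -0.07 and 1.99, against -0.4 and 3.05. The 3 members closest to the limit, B3gnt5, Crls1 and A730017L22Rik, each had a node mean of 10 TPM, against blood means of 30.5, 9.33 and 4.98 TPM. Just outside it, Exoc8, Ppp2r3c and Pxmp4 had node means just under 10 TPM and 11, 12.8 and 9.55 TPM in blood.

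**Figure D2:**
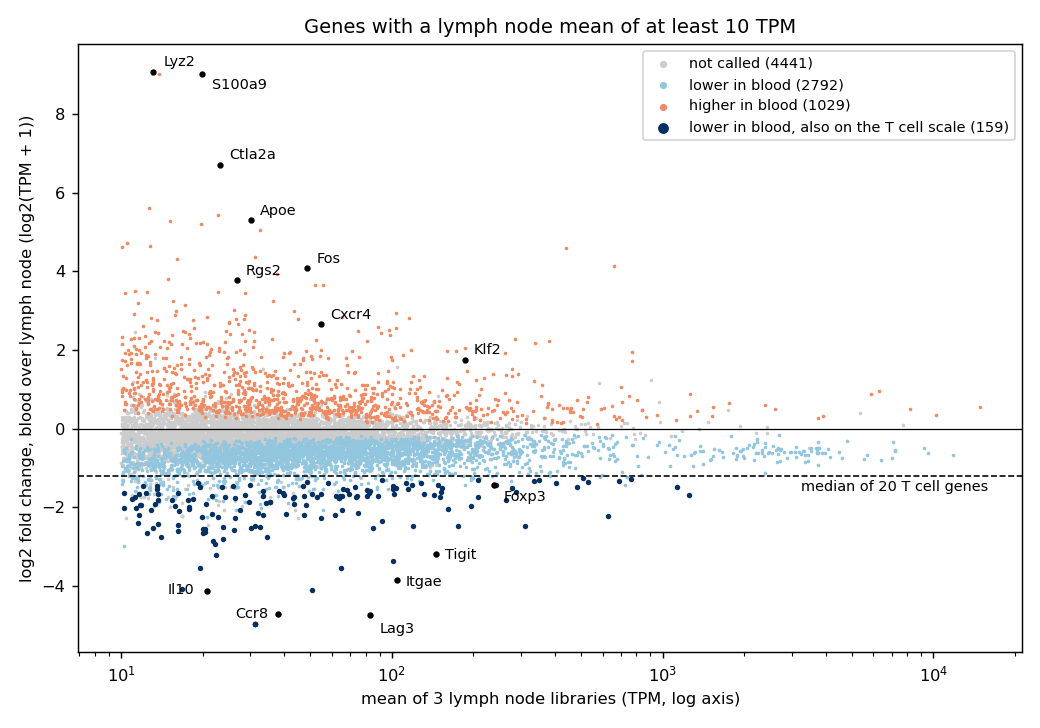
Log2 fold change of blood over lymph node for each of the 8421 node-expressed genes against the mean TPM of the node libraries (log axis). Pale blue and red points are called lower and higher in TPM, dark blue points (159) are lower on the T cell scale as well, and the dashed line marks the median of the 20 T cell genes at -1.19.

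Of the 15 largest decreases 9 are on the effector Treg list, and 14 were lower in blood on both scales. That list holds 33 of the 8421 node-expressed genes. It was chosen with earlier results of these data known, so the overlap is only a description. Lag3 (ENSMUSG00000030124, chr6:124904361-124911705, minus strand), an inhibitory receptor that binds MHC class II, was at 2.26, 1.44 and 2.96 TPM in blood and at 83.6, 84.0 and 81.6 TPM in node, a log2 fold change of -4.73 ± 0.208 (SE; adjusted p = 4.27e-11). Ccr8 (ENSMUSG00000042262, chr9:120092114-120094906, plus strand), a chemokine receptor of effector and tissue Treg cells, was at 0.33, 0.34 and 0.85 TPM against 38.5, 37.4 and 38.4 TPM, or -4.71 ± 0.156 (adjusted p = 1.94e-12). Both were barely detected in every blood library and tightly grouped in node. Il10 (ENSMUSG00000016529, chr1:131019845-131024974, plus strand), the anti-inflammatory cytokine, was at 0.07, 0.30 and 0.41 TPM against 18.7, 19.7 and 24.0 TPM (-4.11 ± 0.198, adjusted p = 1.21e-10). Penk (ENSMUSG00000045573, chr4:4133531-4138819, minus strand), the precursor of enkephalin opioid peptides, was at 2.25, 1.48 and 2.40 TPM against 48.9, 49.8 and 53.7 TPM (-4.10 ± 0.155, adjusted p = 8.23e-12). Itgae (ENSMUSG00000005947, chr11:73090583-73147446, plus strand), the integrin chain CD103 that binds E-cadherin, was at 7.33, 6.39 and 5.40 TPM against 101, 107 and 104 TPM (-3.85 ± 0.129, adjusted p = 2.2e-12). Scaled to T cell genes, the log2 fold changes of these 5 genes were -3.78, -3.97, -3.46, -3.16 and -2.79. Because 1 TPM is added before the logarithm, values this low in blood give fold changes that understate the ratio.

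Of the other 10, Pdcd1, which encodes PD-1, was at 4.29, 4.64 and 5.06 TPM in blood against 65.3, 63.8 and 65.6 TPM in node, a log2 fold change of -3.54 ± 0.0736 (adjusted p = 6.97e-15). Tigit, an inhibitory receptor for nectin-like ligands, was at 17.0, 15.4 and 13.3 TPM against 142, 146 and 147 TPM (-3.18 ± 0.0983, adjusted p = 9.57e-13). Tnfrsf9, the costimulatory receptor 4-1BB, was at 9.17, 10.1 and 7.72 TPM against 107, 89.9 and 107 TPM (-3.36 ± 0.160, adjusted p = 1.02e-10). No blood library came within reach of the lowest node library for any of them. Rgs16, a brake on G protein signalling, fell by 3.20 and Nr4a3, an orphan nuclear receptor induced by antigen receptor signals, fell by 2.86 on the log2 scale, with blood means of 1.56 and 2.12 TPM against 22.5 and 21.8 TPM. Other genes among the 15 were Angptl2, a secreted angiopoietin-like protein (-3.55), Nrn1, neuritin (-2.79), the glycosyltransferase B4galnt4 (-2.76), and the apolipoprotein Apol9a (-2.94), which has a near-identical neighbour in Apol9b and whose reads may be shared with it. The replication histone gene Hist1h4b was at 0, 0.63 and 0.64 TPM against 13.9, 9.33 and 7.53 TPM, and its call (-2.98 ± 1.07, adjusted p = 0.0388) was lost on the T cell scale (adjusted p = 0.0707). The call was also lost without any 1 of the 6 libraries (adjusted p = 0.0666 to 0.11). Replication histone messages end without a poly(A) tail, and selection for poly(A) RNA captures them poorly.

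**Figure D3:**
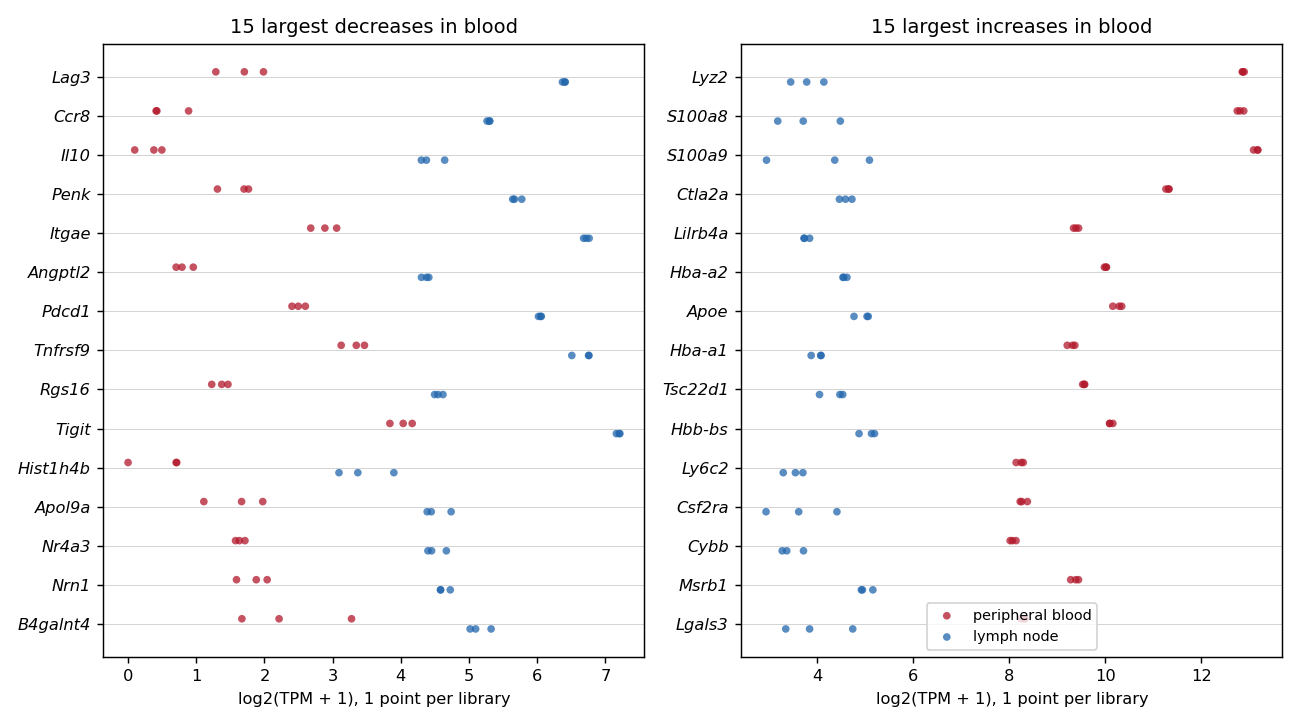
Log2(TPM + 1) of the 15 largest decreases (left) and the 15 largest increases (right), 1 point per library, blood in red and lymph node in blue. Lag3, Ccr8 and Il10 lie near 0 to 2 in blood, and Lyz2, S100a8 and S100a9 lie above 12 in blood and at the bottom of the range in node.

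The levels at the other sites describe the 159 genes called lower on both scales further. Blood had the lowest mean TPM of the 6 sites in 126 of them and node the highest in 67. Over all 8421 node-expressed genes, blood was lowest in 2074 and node highest in 2415. These counts are a description, because the 159 genes were chosen for blood below node and the site means are not scaled. The 20 T cell genes summed to 3428 TPM in blood against 5221 TPM in bone marrow and 6965 TPM in spleen. The median of the 159 was -1.78 in TPM and -0.78 on the T cell scale, and 54 of them are on the gene lists used below. Lag3 averaged 2.22 TPM in blood, 83.1 in node and 30.0 in spleen, and 6.46, 9.84 and 4.96 TPM in bone marrow, liver and lung. Itgae was likewise highest in node: 104 TPM, against 6.37 in blood and 17.9 to 49.7 TPM elsewhere. Ccr8 and Pdcd1 were instead higher outside the node, with 91.3 TPM of Ccr8 in liver and 295 TPM of Pdcd1 in lung against 0.507 and 4.66 TPM in blood. Angptl2 was at 19.6 TPM in node and 12 TPM in spleen, and between 0.767 and 2.87 TPM in the other 4 sites. Apol9a had 22.1 TPM in node and 0 to 2.09 TPM in the other 5 sites. Bone marrow averaged 19.5 TPM of Ccr8, 49.7 TPM of Itgae and 138.5 TPM of Tigit, each above every blood library. Its neutrophil marker sum was 45812 TPM, and the part of other cells in the levels at any site was not tested.

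**Figure D4:**
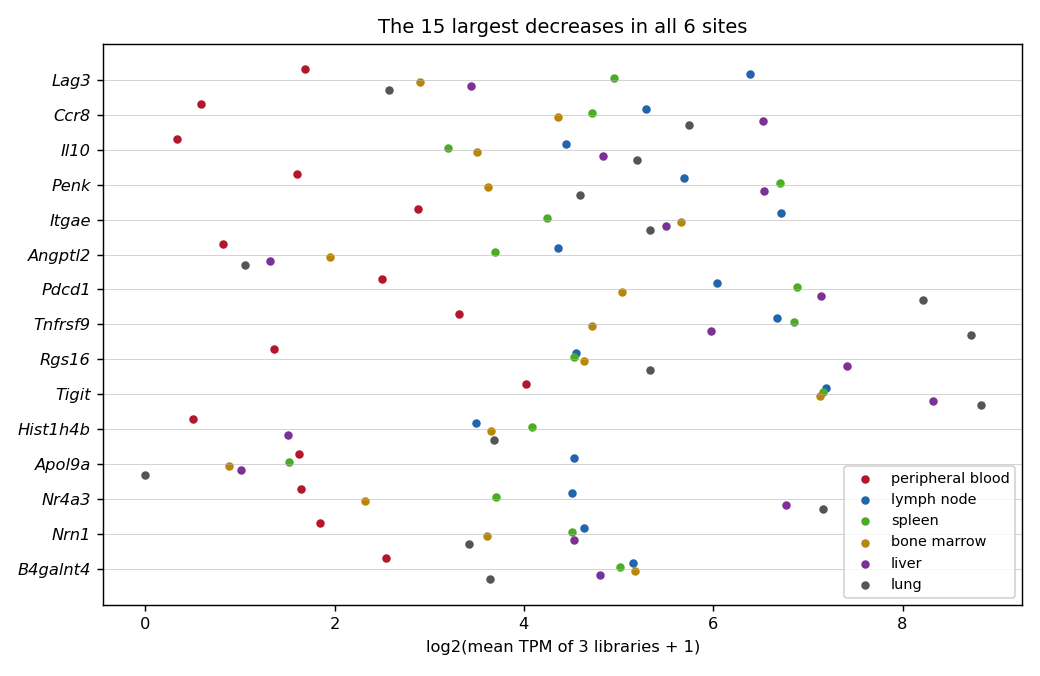
Log2(mean TPM of 3 libraries + 1) of the 15 largest decreases in all 6 sites, 1 colour per site. Blood (red) is the leftmost point in each row except that of Apol9a, while the highest site differs between genes: node for Lag3 (83.1 TPM), liver for Ccr8 (91.3 TPM) and lung for Pdcd1 (295 TPM).

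Some members of the 159 stood outside the ranking and the lists, and a few are named here after their values were seen. Tox2, an HMG-box factor of activated T cells, was at 2.97, 2.47 and 2.31 TPM in blood against 20.6, 19.4 and 20.1 TPM in node (-2.56, T cell scale -1.60). Tnfsf11, the cytokine RANKL, fell by 2.53 and Dusp4, a phosphatase acting on MAP kinases, fell by 2.48 on the log2 TPM scale, and both were lower on the T cell scale, at -1.52 and -1.46. In each of these, blood and node libraries were separated by several times their own range. The copies Rnu3b1, Rnu3b2, Rnu3b3 and Rnu3b4 of a small nucleolar RNA were listed at 0 in all blood libraries and shared 1 set of node values (36.9, 35.1 and 21.6 TPM), so they cannot be counted as separate genes, and RNA of this class has no poly(A) tail.

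At the other end, the 15 largest increases had node means of 10.1 to 32.7 TPM, and 6 of them are on the marker lists of other cells. Lyz2, the lysozyme of neutrophils and monocytes, was at 7388, 7591 and 7428 TPM in blood and at 16.6, 9.93 and 12.8 TPM in node (9.08 ± 0.211, adjusted p = 3.06e-14). S100a8 and S100a9, the calprotectin pair of neutrophils, averaged 7184 ± 341 and 9048 ± 305 TPM in blood against 13.9 ± 6.82 and 19.8 ± 13.2 TPM in node. The haemoglobin genes Hba-a1, Hba-a2 and Hbb-bs rose by 5.28, 5.44 and 5.05, with Hba-a1 and Hba-a2 near-identical in sequence. Lilrb4a (an inhibitory receptor of myeloid cells), Apoe (the lipid carrier), Ly6c2, Csf2ra (a GM-CSF receptor chain), Cybb (the NADPH oxidase subunit), Msrb1 (a methionine sulfoxide reductase) and Lgals3 (galectin 3) rose by 5.62, 5.30, 4.71, 4.63, 4.62, 4.36 and 4.32. These increases stand beside the neutrophil, monocyte and erythroid marker sums given above, of which S100a8, S100a9, Lyz2 and the haemoglobins are themselves part, and the part of other cells in the result was not tested. Ctla2a and Tsc22d1 had the lowest bone marrow means of the 15, below that of Csf2ra, the next lowest at 123 TPM. Ctla2a, an inhibitor of cathepsin L, was at 2550, 2453 and 2567 TPM in blood against 23.1, 25.5 and 21.1 TPM in node (6.71 ± 0.162), and averaged 63.3 TPM in bone marrow, 25.6 TPM in spleen, 159.7 TPM in liver and 174 TPM in lung. Tsc22d1, a leucine zipper regulator, averaged 750.4 ± 11.2 TPM in blood against 19.7 ± 3.57 in node and 34.2 TPM in bone marrow. Both were highest in blood and higher in bone marrow than in spleen, an order shared by Lyz2, Lilrb4a, Apoe, Csf2ra, Cybb, Msrb1 and Lgals3. Of the marker lists, 3 had the same order over blood, bone marrow and spleen: platelet genes (3094, 80.0 and 9.68 TPM), monocyte and macrophage genes (11866, 4236 and 636 TPM) and node stroma and endothelium genes (132, 83.1 and 82.0 TPM). In the last list bone marrow and spleen were nearly equal. Of its 12 genes 5 were at 0 in all blood libraries, and 3 averaged at least 1 TPM in blood. The part of these cell types in the values of Ctla2a and Tsc22d1 was not tested.

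Most genes of the Treg identity list fell in blood in TPM. Of 18 such genes 17 were node-expressed, 14 were lower in TPM, 2 were higher and 1 was not called, with a median of -1.23. On the T cell scale 7 were lower, 3 higher and 7 not called, with a median of -0.13. These and the following list counts can be read against the 35% lower and 12.2% higher among all node-expressed genes and their median of -0.30 in TPM, and against 1.89% lower, 74.5% higher and a median of 0.78 on the T cell scale. Foxp3, whose values are given above, had a log2 fold change of -1.42 ± 0.0697 (adjusted p = 1.5e-10), and -0.30 on the T cell scale (adjusted p = 0.000753). Ctla4, the receptor with which Treg cells remove B7 ligands, was at 141, 132 and 128 TPM in blood against 348, 328 and 327 TPM in node (-1.32, T cell scale -0.20, adjusted p = 0.0158). For both, the libraries did not overlap in TPM, and a small difference was left after scaling to T cell genes. Differences of this size also occurred among the 20 genes that set the scale, of which 8 were called lower there and 4 higher. Among them Zap70 stood at -0.70, Cd4 at -0.26 and Trat1 at 0.77, so these calls do not set Foxp3 and Ctla4 apart from general T cell genes. Ikzf2 (Helios) was at -1.43, with -0.32 on the T cell scale, and its paralogue Ikzf4 (Eos) at -1.48, where the T cell scale left -0.38 and no call (adjusted p = 0.0883). The interleukin 2 receptor alpha chain Il2ra was at 99.8, 99.7 and 102 TPM against 225, 237 and 239 TPM, or -1.21, and at -0.09 on the T cell scale (adjusted p = 0.496). Lrrc32, which displays latent TGF beta on the surface, was lost in the same way (-1.16 and -0.06), and Nrp1 (neuropilin 1) and Gpr83 turned from -0.93 and -1.01 to 0.18 and 0.08, neither called.

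Surface proteins of this list that were lower on the T cell scale as well included Izumo1r, Nt5e and Tnfrsf18. Izumo1r, the folate receptor FR4 of Treg cells, was at 124, 142 and 133 TPM in blood against 627, 615 and 638 TPM in node (-2.23 ± 0.131, adjusted p = 1.24e-09), with -1.11 on the T cell scale. Nt5e, the ecto-enzyme CD73 that makes adenosine, was at 43.8, 42.4 and 46.5 TPM against 147, 143 and 141 TPM (-1.68, T cell scale -0.57). Tnfrsf18 (GITR) was at -1.60 and Capg, an actin capping protein, at -1.35, with -0.48 and -0.23 on the T cell scale. The opposite direction was seen for Entpd1, the ecto-enzyme CD39 that acts one step before CD73, with 73.7, 86.9 and 75 TPM in blood against 21.7, 27.9 and 24.4 TPM in node (1.64 ± 0.320, adjusted p = 0.000708). Tnfrsf1b, the TNF receptor TNFR2, was slightly higher in blood (0.20, adjusted p = 0.0187), a call lost without blood replicate 2 or 3 or node replicate 2 (adjusted p = 0.0615 to 0.0753). Myeloid cells are known to express both Entpd1 and Tnfrsf1b, monocyte marker sums were 11866 against 422 TPM, and their part was not tested.

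Effector Treg genes moved in both directions. Of 33 node-expressed genes of 35, 23 were lower in TPM, 8 higher and 2 not called (median -0.93), and on the T cell scale 14 were lower, 15 higher and 4 not called (median 0.15). Besides the receptors already described, Icos, a costimulatory receptor needed by effector Treg cells, was at 32.1, 28.1 and 31.8 TPM in blood against 179, 172 and 175 TPM in node (-2.48 ± 0.0664, adjusted p = 1.71e-13). Tnfrsf4, the costimulatory receptor OX40, was at 56.7, 55.5 and 54.1 TPM against 304, 308 and 321 TPM (-2.47 ± 0.0553, adjusted p = 1.79e-14). Both stayed lower on the T cell scale, at -1.38 and -1.35. Among transcription factors, Maf, which drives Il10, was at 20.3, 20.7 and 21.0 TPM against 119, 119 and 122 TPM (-2.48, T cell scale -1.38), and Batf, a partner of IRF4, was at -1.38 (T cell scale -0.27). Prdm1 (Blimp-1) was at -1.22 and not called on the T cell scale (-0.21). Irf4, Gata3 and Rora were lower in TPM at -0.73, -0.93 and -0.88 but at 0.35, 0.17 and 0.15 on the T cell scale, where Irf4 was called higher. Klrg1, a receptor of terminally differentiated cells, likewise went from -0.43 to 0.64, and its call in TPM was lost without blood replicate 2 or 3 or node replicate 1 or 2 (adjusted p = 0.0675 to 0.0862).

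Effector genes that were higher in blood included several that other leukocytes share. Fgl2, a secreted fibrinogen-like protein linked to Treg suppression, was at 221, 212 and 221 TPM in blood against 26.5, 26.7 and 25 TPM in node (3.02 ± 0.114, adjusted p = 8.23e-12). Cd44, the hyaluronan receptor of activated cells, was at 281, 258 and 267 TPM against 73.3, 75.5 and 78.0 TPM (1.82), and S100a6, a calcium-binding protein, averaged 534 ± 25.1 against 88.8 ± 12.2 TPM (2.58). In bone marrow these 3 genes averaged 78.5, 124 and 415 TPM. Gzmb (granzyme B) was at 30.7, 24.4 and 28.9 TPM in blood against 15.8, 15.5 and 14.9 TPM in node (0.82, adjusted p = 0.00526), next to a cytotoxic marker sum of 730 against 89.6 TPM. Whether other cells account for any of these differences was not tested. The cytokine genes Tgfb1 (0.07) and Ebi3 (-0.08, and 1.00 on the T cell scale) were not called in TPM, and their libraries overlapped.

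Genes of the T cell receptor and its proximal signalling were mostly lower in TPM: 19 of 22 lower, 1 higher and 2 not called, median -1.10. As 15 of these 22 also set the T cell scale, their values there (6 lower, 8 higher, 8 not called, median 0.02) are centred near 0 by construction. Zap70, the kinase recruited to the phosphorylated receptor, fell most, with 74.6, 71.3 and 76.0 TPM in blood against 258, 262 and 268 TPM in node (-1.82). Lck, the kinase that acts first on the receptor, was at 400, 412 and 399 TPM against 1152, 1141 and 1104 TPM (-1.49), and the receptor chain Cd3e at 274, 272 and 286 against 691, 684 and 697 TPM (-1.31). Cd28, the main costimulatory receptor, fell less (-0.42), and was at 0.69 on the T cell scale. Ptprc, which encodes the leukocyte phosphatase CD45 present on all white cells, was higher in blood (1265, 1193 and 1222 against 960, 956 and 949 TPM, 0.36).

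Targets of receptor signalling went both ways. Of 23 node-expressed genes of 24, 14 were lower, 5 higher and 4 not called in TPM (median -0.73), and 6, 12 and 5 on the T cell scale (median 0.35). The nuclear receptor Nr4a3 fell, with 2.10, 2.28 and 1.98 TPM in blood against 20.1, 20.9 and 24.4 TPM in node, and stayed lower on the T cell scale (-1.93). Its paralogue Nr4a1 (Nur77) rose, with 609, 645 and 627 TPM against 238, 233 and 239 TPM (1.40 ± 0.0473, adjusted p = 2.22e-12). The zinc finger factors Egr2 and Egr3 were at -1.33 and -1.37 in TPM, and at -0.30 and -0.31 without a call on the T cell scale. Dusp6, a phosphatase that switches off ERK, was at 130, 138 and 129 TPM in blood against 14.4, 15.2 and 18.2 TPM in node (2.98 ± 0.172, adjusted p = 1.04e-09), and Irf8, a factor of myeloid and B cells, rose by 1.79. Neutrophil and monocyte marker sums were 20395 and 11866 TPM in blood, and the part of other cells in these increases was not tested.

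Interleukin 2 signalling genes were almost uniformly lower in TPM, 14 of 16 with 2 higher and a median of -1.03. On the T cell scale 5 were lower, 7 higher and 4 not called (median 0.08). Cish, a feedback inhibitor, was at 16.7, 18 and 16.9 TPM in blood against 94.0, 88.6 and 92.4 TPM in node (-2.35 ± 0.0703, adjusted p = 6.74e-13, T cell scale -1.26). Socs1, another feedback inhibitor, was at 8.44, 8.62 and 7.89 TPM against 27.7, 29.0 and 29.4 TPM (-1.67, T cell scale -0.62). The cytokine gene Lta was at 18.7, 14.3 and 15.6 TPM against 74.1, 75.5 and 74.3 TPM (-2.14, T cell scale -1.06). By comparison the receptor chains Il2ra and Il2rb, at -1.21 and -1.19, were within 0.1 of 0 on the T cell scale, and the kinase Jak3 was at -0.40 there after -1.51 in TPM. The transcription factors Stat5a and Stat5b were lower in TPM at -0.86 and -0.34 and called higher on the T cell scale at 0.24 and 0.77. Socs3, an inhibitor of interleukin 6 family signals, and the kinase gene Pim1 were the 2 higher genes, at 0.60 and 0.55. Whether receptor and target genes differed in their change was not tested, nor was the part of other cells in these 2 increases.

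Homing genes went both ways. Of 23 node-expressed trafficking genes of 26, 8 were lower, 12 higher and 3 not called in TPM (median 0.38), and 3, 19 and 1 on the T cell scale (median 1.47). Ccr7, the chemokine receptor for node entry, was at 255, 281 and 269.7 TPM in blood against 198, 197 and 195 TPM in node (0.45 ± 0.0717, adjusted p = 0.000114). Klf2 (ENSMUSG00000055148), a factor that induces node entry and exit receptors, was at 605, 604 and 671 TPM against 185, 179.6 and 192 TPM (1.75 ± 0.0693, adjusted p = 1.34e-11). Both were above every node library in every blood library. The exit receptor S1pr1 was at 219, 226 and 221 TPM in blood and 213, 209 and 206 TPM in node, a difference of 0.08 ± 0.0597 that was not called (adjusted p = 0.301), and S1pr4 was the same in size (0.08, adjusted p = 0.375). On the T cell scale they stood at 1.20 and 1.19, both called higher. Cd69, which holds S1PR1 inside the cell, rose by 0.74 in blood. For Ccr7, Klf2 and Cd69 the part of other cells in the rise was not tested.

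Chemokine receptors and integrins on this list also went both ways. Besides Ccr8, Ccr4 fell and was at 11.2, 10.4 and 10.3 TPM in blood against 54.8, 53.4 and 56.1 TPM in node (-2.26 ± 0.0709, adjusted p = 1.09e-12, T cell scale -1.19). Ccr6 was at 19.2, 14.0 and 12 TPM against 61.3, 72.6 and 61.5 TPM (-2.06, T cell scale -0.98, adjusted p = 0.00828). The gut receptor Ccr9 was at -1.41 and not called on the T cell scale (-0.38, adjusted p = 0.119). Cxcr3, the receptor of type 1 inflammation, and the integrin chain Itgb7, used for gut entry, were lower in TPM at -0.62 and -0.49 but higher on the T cell scale at 0.46 and 0.63, and Cxcr5, the follicle receptor, was not called in TPM (-0.32, 0.77 on the T cell scale). Upward, Cxcr4, the receptor for bone marrow retention, was at 338, 354 and 356 TPM against 52.7, 57.5 and 53.7 TPM (2.66 ± 0.0670, adjusted p = 8.38e-14), Itga4 rose by 1.02 and Gpr183, an oxysterol receptor, by 0.38. Ccr2 was at 366, 337 and 362 TPM against 43.3, 44.8 and 42.9 TPM (2.99). It is also on the monocyte marker list, and CXCR4 is known on neutrophils, whose part in these increases was not tested. Bone marrow averaged 41.9 TPM of Ccr7, 776 TPM of Klf2 and 619.8 TPM of Cxcr4.

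Transcription factors of resting T cells did not move as 1 group. All 20 listed genes were node-expressed: 5 were lower, 10 higher and 5 not called in TPM (median 0.21), and 1, 17 and 2 on the T cell scale (median 1.31). Tcf7 and Lef1, the paired factors of naive and stem-like T cells, were lower in TPM and higher on the T cell scale: Tcf7 was at 251, 258 and 262 TPM in blood against 432, 426 and 433 TPM in node (-0.74, T cell scale 0.38), and Lef1 went from -0.72 to 0.39. Foxo1, which controls Klf2 and Il7r, behaved alike (-0.66, T cell scale 0.44). Id3, an inhibitor of E proteins, was lower on both, with 24.3, 28.1 and 28.1 TPM against 78.8, 81.9 and 81.6 TPM (-1.56, T cell scale -0.46, adjusted p = 0.0154). Higher on both were Klf6 (263, 244 and 251 against 49.9, 54.3 and 53.2 TPM, 2.25), Klf3 (1.44), the antiproliferative genes Btg2 (1.20) and Tob1 (1.16), and the interleukin 7 receptor gene Il7r (122, 104 and 112 against 65.7, 65.6 and 67.9 TPM, 0.75). Whether RNA of other cells is part of these increases was not tested. Foxp1 (-0.13, 0.98 on the T cell scale) and Btg1 (0.06) were not called in TPM.

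Immediate early and stress genes, which respond within minutes to stimulation or handling, were mostly higher in blood. Of 21 node-expressed genes of 26, 15 were higher, 5 lower and 1 not called (median 0.91), and on the T cell scale 18, 2 and 1 (median 2.03). Fos (ENSMUSG00000021250, chr12:85473890-85477273, plus strand), an AP-1 subunit, was at 836, 853 and 843 TPM in blood against 48.7, 49.2 and 48.3 TPM in node (4.09 ± 0.0798, adjusted p = 3.76e-15). Rgs2, a brake on G protein signalling, was at 395, 364 and 379.6 TPM against 28.1, 27.9 and 24.3 TPM (3.78 ± 0.132, adjusted p = 3.32e-12). Dusp1, a phosphatase of stress kinases, was at 796, 808 and 833 TPM against 116, 119 and 112 TPM (2.80 ± 0.0443, adjusted p = 3.15e-16). Each stood in the blood libraries at several times its highest node value. Tsc22d3 (the glucocorticoid-induced GILZ), Zfp36 (an mRNA decay factor) and Junb rose by 2.00, 1.86 and 1.36. The rise was not shared by all: Ddit4, an inhibitor of mTORC1, was at 37.3, 37.4 and 40.9 TPM in blood against 150.3, 164 and 170 TPM in node (-2.04, T cell scale -0.93), Rgs1 fell by 1.48 (T cell scale -0.36), and Crem, a cAMP response factor, was at 6.87, 15.5 and 13 TPM against 36.1, 34.1 and 33.0 TPM (-1.53, T cell scale -0.47, adjusted p = 0.0534). Granulocytes and monocytes are known to express several of these genes, but no library of such cells is in the series. The bone marrow libraries averaged 2198 TPM of Fos, 1201 of Dusp1 and 1559 of Junb, and had a neutrophil marker sum of 45812 TPM. Liver and lung had 369 and 486 TPM of Fos. The part of other cells in these increases was not tested. The labels do not describe how cells were prepared from each site, so site and preparation cannot be told apart.

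The promoters of these genes were searched for 3 motifs. The 8-base cAMP response element TGACGTCA, the palindromic site of the CREB family to which Crem belongs, was searched in the 250 bases before each start in the RefSeq promoter table (GRCm38.p6), on both strands. Of 20 windows from the 17 of these 21 genes with an entry, 3 held it (15%), against 222 of 8298 windows of the node-expressed genes (2.68%) and 508 of 32851 windows in all (1.55%). A CArG box, the site of serum response factor, was in 1 of the 20 windows (1.47% of all), and the AP-1 site TGACTCA in 1 (4.46% of all). Among node-expressed genes higher on both scales the cAMP response element was in 27 of 1068 windows (2.53%), a share no larger than among all node-expressed genes. The 3 windows were picked for holding the element, so it is no finding that they share it. They follow, 5′ to 3′ in the direction of the gene and ending at the base before its start, with the element in capitals: Btg2 at chr1:134079156-134079405, Dusp1 at chr17:26508473-26508722 and Ppp1r15a at chr7:45526269-45526518, all on the minus strand.
Btg2: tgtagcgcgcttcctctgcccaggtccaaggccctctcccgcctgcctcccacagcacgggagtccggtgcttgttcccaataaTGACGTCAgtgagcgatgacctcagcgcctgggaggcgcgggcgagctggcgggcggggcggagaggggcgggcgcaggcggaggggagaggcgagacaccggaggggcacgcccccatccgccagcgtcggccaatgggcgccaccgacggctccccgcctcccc
Dusp1: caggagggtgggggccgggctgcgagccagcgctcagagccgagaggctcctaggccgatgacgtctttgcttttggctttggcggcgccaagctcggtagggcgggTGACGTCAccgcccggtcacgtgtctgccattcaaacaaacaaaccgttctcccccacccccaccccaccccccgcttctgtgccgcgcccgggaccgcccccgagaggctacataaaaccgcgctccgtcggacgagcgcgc
Ppp1r15a: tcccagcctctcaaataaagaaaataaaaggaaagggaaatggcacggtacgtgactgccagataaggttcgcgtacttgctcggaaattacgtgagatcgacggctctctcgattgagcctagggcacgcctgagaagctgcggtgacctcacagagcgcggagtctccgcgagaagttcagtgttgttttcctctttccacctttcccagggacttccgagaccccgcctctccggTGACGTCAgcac
The element lies 159 to 166 bases before the start in Btg2, 136 to 143 in Dusp1 and 5 to 12 in Ppp1r15a. Dusp1 is described above. Btg2 was at 265, 279.5 and 269.7 TPM in blood against 120, 119 and 115 TPM in node (1.20 ± 0.0662, adjusted p = 6.52e-10), and Ppp1r15a, a regulator of the stress response to misfolded protein, at 57.5, 56.3 and 65.1 TPM against 34.6, 39.1 and 32.0 TPM (0.75 ± 0.125, adjusted p = 0.000176). The 3 genes were higher in all blood libraries. A match of letters is not evidence of binding.

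Cell division genes were the list with the lowest median. Of 24 node-expressed genes of 25, 22 were lower and 2 higher in TPM (median -1.49), and on the T cell scale 13 were lower, 3 higher and 8 not called (median -0.44). Rrm2, a subunit of ribonucleotide reductase, was at 5.94, 3.86 and 4.33 TPM in blood against 25.1, 27.2 and 26.7 TPM in node (-2.28 ± 0.163, adjusted p = 1.41e-08, T cell scale -1.26). Top2a, the topoisomerase of dividing cells, was at 6.77, 6.39 and 6.39 TPM against 31.7, 32.7 and 31.3 TPM (-2.13, T cell scale -1.09). Mki67, which encodes the proliferation marker Ki-67, was at 6.41, 6.41 and 6.93 TPM against 25.5, 23.4 and 23.4 TPM (-1.73, T cell scale -0.69), and the helicase gene Mcm2 at -1.71 (T cell scale -0.64). In all 4 the blood libraries lay below every node library. Bone marrow had more of each, with 87.1 TPM of Rrm2 and 115.5 TPM of Top2a. Pcna, the replication clamp, fell by 0.46 in TPM and was at 0.66 on the T cell scale. Hmgb2, a chromatin protein, and the cyclin gene Ccnd3 were higher in blood, at 0.41 and 0.35. The call of Ccnd3 was lost without replicate 2 or 3 of either group (adjusted p = 0.0773 to 0.122).

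Genes for making ribosomes and proteins were mostly lower in TPM. Of 23 ribosome biogenesis genes 19 were lower and none higher in TPM (median -0.75), 4 not called, and on the T cell scale none was lower, 9 were higher and 14 not called (median 0.34). Rrp9, a part of the U3 small nucleolar particle, was at -1.15 (T cell scale -0.06), and Polr1a, the large subunit of RNA polymerase I, at -0.24, not called (0.84 on the T cell scale). Of 20 translation factors 16 were lower and 2 higher in TPM (median -0.47), and all 20 were higher on the T cell scale (median 0.65). Eef1g went from -0.77 to 0.35, and Eif1, which selects the start codon, rose on both (0.68 in TPM). Of 24 chaperones and folding enzymes 15 were lower, 1 higher and 8 not called (median -0.46), while 23 were higher on the T cell scale. Cct3, a chaperonin subunit, was at -0.95 (T cell scale 0.16, not called), and Hsp90b1 of the endoplasmic reticulum at 0.25 (adjusted p = 0.0154, but 0.0855 without blood replicate 1 and 0.0528 without blood replicate 3). The direction of these 3 lists therefore depends on the scale.

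Among the most abundant node transcripts, Eef1a1, the elongation factor that delivers aminoacyl-tRNA, was at 7386, 7621 and 7347 TPM in blood against 11776, 11850 and 11867 TPM in node (-0.67, T cell scale 0.46). The ribosomal protein genes Rpl13a and Rps27 were at -0.60 and -0.49 (0.52 and 0.63 on the T cell scale). Of all 81 node-expressed ribosomal protein genes, a family picked after the values were seen, 76 were lower and none higher in TPM (median -0.59) and 81 were higher on the T cell scale. The class took 16.0% to 16.4% of TPM in blood libraries and 24.1% in each node library. Most mitochondrial transcripts were higher in blood: mt-Co1, a subunit of cytochrome oxidase, was at 13754, 12223 and 12871 TPM against 10244, 10178 and 10225 TPM (0.34, adjusted p = 0.000608), and mt-Atp8 was at 0.55 (adjusted p = 0.000796). Of 13 mitochondrial mRNAs 10 were higher in TPM and 3 not called (median 0.55), and 12 were higher on the T cell scale. The 2 mitochondrial ribosomal RNAs were higher by more, at 4.14 and 4.59 in TPM. With them included, mitochondrial genes held 9.37% to 9.52% of TPM in blood against 4.90% to 5.11% in node.

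All node-expressed genes of the MHC class I, GIMAP and interferon lists were higher on the T cell scale, as were 74.5% of all node-expressed genes. In TPM they varied. Of 17 MHC class I pathway genes 13 were lower, 1 higher and 3 not called (median -0.64), and all 17 were higher on the T cell scale. H2-K1, a class I heavy chain with near-identical relatives, was at 4048, 4238 and 4254 TPM in blood against 7066, 7008 and 7062 TPM in node (-0.75, T cell scale 0.37), its regulator Nlrc5 at -0.77 (T cell scale 0.35), and the light chain B2m, present on nearly all cells, at 0.27 (adjusted p = 3.83e-05). Of 8 GIMAP genes, GTPases of lymphocyte survival, 7 were lower and 1 not called (median -0.37), with Gimap1 at -0.72 (T cell scale 0.40) and Gimap4 at 0.16, and all 8 were higher on the T cell scale. Of 22 node-expressed interferon response genes of 24, 12 were not called, 6 were lower and 4 higher (median -0.12), and all 22 were higher on the T cell scale. Irf7, an interferon regulatory factor, was higher on both, at 115, 123 and 122 TPM in blood against 58.8, 58.8 and 60.7 TPM in node (1.00).

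Metabolic lists had medians between -0.34 and -0.13 in TPM. Of 15 glycolysis genes 7 were lower, 2 higher and 6 not called (median -0.13), of 24 nuclear respiratory chain genes 9 were lower, 1 higher and 14 not called (median -0.34), and of 16 cholesterol synthesis genes 4 were lower, 3 higher and 9 not called (median -0.24). On the T cell scale 14, 22 and 12 of them were higher and none was lower, beside 74.5% higher and 1.89% lower among all node-expressed genes. The glucose transporter gene Slc2a3 was the exception in size, at 139.9, 136 and 137 TPM in blood against 41.7, 43.1 and 45.5 TPM in node (1.64 ± 0.102, adjusted p = 2.41e-09), and bone marrow had 142 TPM. Ldha and Ldhb, the lactate dehydrogenase subunits, were lower in TPM at -0.68 and -0.88 and at 0.44 and 0.22 on the T cell scale. In the respiratory chain Atp5g1 was lowest (-0.94, T cell scale 0.17) and Cox5a highest (0.57). Among sterol enzymes Dhcr7 was lower in TPM (-0.83, T cell scale 0.25). The call of Dhcr7 was lost without blood replicate 1 or 2 or any node replicate (adjusted p = 0.052 to 0.08).

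Actin and motility genes were more often higher than lower in TPM. Of 26 actin and motility genes 14 were higher, 8 lower and 4 not called in TPM (median 0.14), and all 26 were higher on the T cell scale. Tmsb4x, thymosin beta 4, which binds actin monomers, was at 12995, 11479 and 12392 TPM in blood against 6271, 6336 and 6291 TPM in node (0.96 ± 0.0369, adjusted p = 9.91e-12). Actb and the haematopoietic GTPase gene Rac2 were lower in TPM at -0.33 and -0.66 and at 0.80 and 0.46 on the T cell scale. Of 17 node-expressed survival and death genes of 18, 6 were lower, 3 higher and 8 not called (median 0.05), and 1, 15 and 1 on the T cell scale. Mcl1, on which Treg cells depend, was at 815, 762 and 812 TPM against 286, 273 and 275 TPM (1.52 ± 0.0414, adjusted p = 2.1e-13). Bcl2 was at -0.32 in TPM (adjusted p = 0.0278, and 0.0518 to 0.0801 with any 1 library left out) and at 0.79 on the T cell scale. Bcl2a1b, an antiapoptotic gene with near-identical copies, fell on both (-1.43, T cell scale -0.32, adjusted p = 0.019). Neutrophils and monocytes are known to express Tmsb4x and Mcl1 strongly, and the part of their RNA in these values was not tested.

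**Figure D5:**
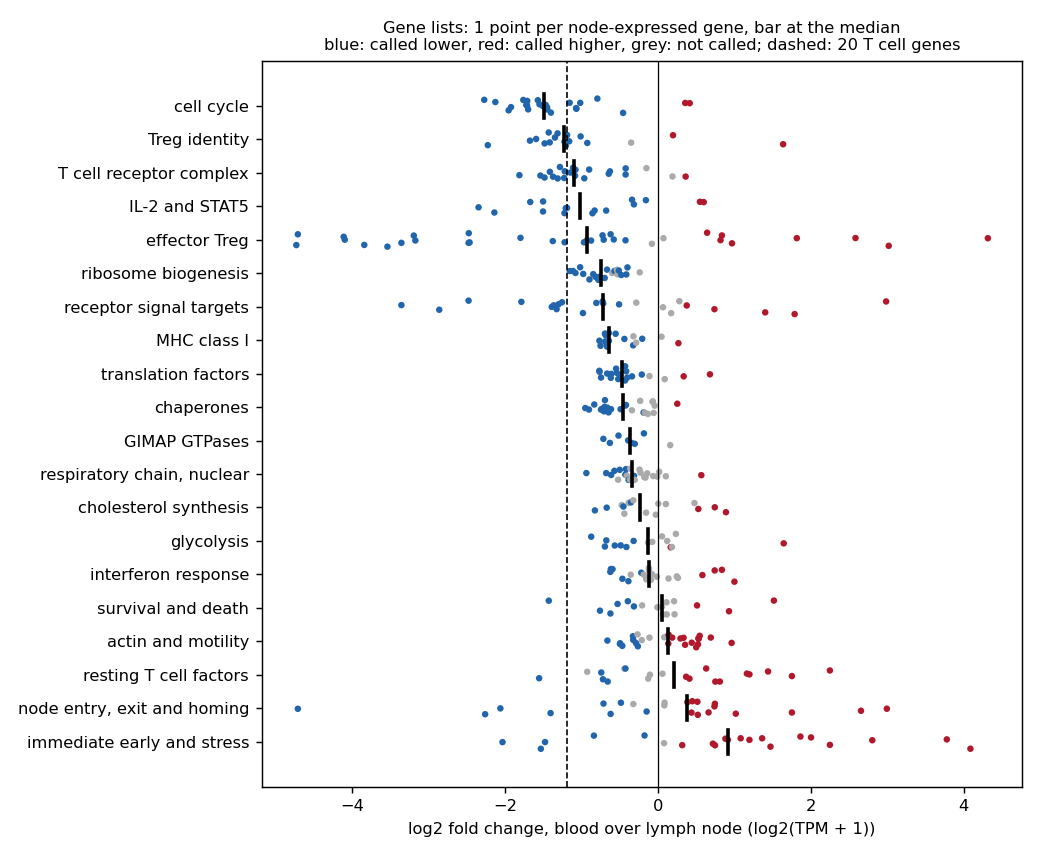
Log2 fold change of blood over lymph node for the node-expressed genes of the 20 lists, sorted by list median (black bars), with genes called lower in blue, higher in red and not called in grey. Cell cycle genes have the lowest median (-1.49), immediate early genes the highest (0.91), and effector genes spread from -4.73 to 4.32 around the dashed line of the T cell genes (-1.19).

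Antigen receptor segments of T cells were lower or not called. Of 81 node-expressed T cell receptor variable segments, a family picked after the values were seen, 33 were lower in blood, none higher and 48 not called (median -1.32), and on the T cell scale 4 were lower and 4 higher (median -0.31). The 6 immunoglobulin constant genes that passed the node limit were all higher in blood (median 2.03), as were all 7 node-expressed B cell markers. Cd8b1 was lower in blood in TPM (-0.54, T cell scale 0.54), at 19.2, 21.2 and 18.5 TPM against 27.5, 29.3 and 30.3 TPM, a call lost without blood replicate 1 or 3 or node replicate 2 or 3 (adjusted p = 0.0612 to 0.0734). Segment genes of a family share sequence, so reads may be divided among them.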

How the data were processed

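Poly(A) RNA of sorted Treg cells was measured in 18 libraries of 6 groups. The authors deposited TPM values per Ensembl gene ID, 1 table per library, and RSEM, STAR and mm10 are named in the submitters' processing notes, without versions or roles. The annotation and the strand setting of the counting are not given in the sources used here, so values of overlapping genes on opposite strands are uncertain. Symbols, gene types and coordinates came from GENCODE M21 (GRCm38, the same assembly as mm10), which matched 55141 of the 55487 IDs.

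TPM keeps no depth. From the steps between low values of single-transcript genes, 1 read of a 1 kb transcript was worth 0.0794 to 0.0882 TPM in blood and 0.0803 to 0.0965 TPM in node, so that 10 TPM of such a gene stood for 104 to 126 reads; 69.6% to 78.5% of the low values lay within 0.1 of a whole read. The number of genes above 0 TPM was 19365 to 19661 in blood and 18985 to 19297 in node. The median coefficient of variation of the node-expressed genes was 6.95% in blood and 4.99% in node.

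Values were compared with limma 3.58.1 in R 4.3.3 on log2(TPM + 1), with a pseudocount of 1, over genes whose mean reached 1 TPM in 1 or more groups. All 18 libraries entered 1 fit with a mean per group, trend and robust settings, and Benjamini-Hochberg adjustment over 16694 genes. The design had provided for counts as well, which did not apply. The procedure was tested on simulated data. The T cell scale multiplied each library by 1 factor taken from 20 T cell genes.

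The members and gene lists were chosen with earlier results of these data known. Genes were named by rule: the 15 largest decreases and increases among called members without overlap between the groups, with a symbol and without predicted genes, receptor segments, pseudogenes and short noncoding RNAs, the 5 highest in node, the 3 on either side of 10 TPM, and from each list the lowest, the highest and those its roles needed. A few genes that the rule or the text would name are not reported here. Genes named after their values were seen are marked as such. Left-out libraries, a replicate block, scalings, pseudocounts, filters and model settings were tried as alternatives. The marker list gene Ahsp had no matching symbol. No 2 tables held identical values.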

Additional observations from a re-analysis of the deposited data

How the results depend on the processing

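The split between lower and higher depends on the scaling. The number of node-expressed genes lower in blood, 2951, became 159 with T cell gene scaling, 1560 with median ratio scaling, 1596 with a node limit of 50 TPM (48% of 3328 genes), 4569 with only the blood and node libraries in the fit and 4718 with library weights. The number higher, 1029, became 6271, 1629, 435 and 1561 with T cell scaling, median ratio scaling, the 50 TPM limit and library weights. The median of -0.30 turned to 0.78 with T cell scaling and moved to -0.06 with median ratio scaling, -0.29 with abundant and marker genes removed, -0.31 and -0.26 with pseudocounts of 0.1 and 5, -0.30 and -0.33 with node limits of 5 and 50 TPM, -0.28 with the spleen limit and -0.24 with a limit on the mean over 6 groups. Leaving out each library in turn gave 2443 to 2501 lower, 881 to 913 higher and a median of -0.30. The replicate block gave 2930 lower, 1008 higher and a median of -0.30, and changed no call of the 161 named genes. Same-numbered blood and node libraries deviated together only weakly, with correlations of 0.05, 0.091 and 0.017. The other pairs had -0.065 to 0.006. The labels state no pairing, and values this small cannot decide whether there was one. Each blood library correlated best with the node library of its own number, and each node library likewise. With 3 libraries per group, whose deviations are not independent, this order cannot show a pairing either.

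With T cell scaling the log2 fold change turned positive for Eef1a1 (0.46), Rpl13a (0.52), Rps27 (0.63), Crls1 (0.92), A730017L22Rik (0.12), Pxmp4 (0.97), Rac2 (0.46), Cct3 (0.16), Dhcr7 (0.25), Gimap1 (0.40), Ldhb (0.22), Nlrc5 (0.35), Atp5g1 (0.17), Polr1a (0.84), Trat1 (0.77), Eef1g (0.35), Nrp1 (0.18), Gpr83 (0.08), Irf4 (0.35), Gata3 (0.17), Rora (0.15), Klrg1 (0.64), Ebi3 (1.00), Cxcr3 (0.46), Cxcr5 (0.77), Itgb7 (0.63), Cd28 (0.69), Stat5a (0.24), Stat5b (0.77), Tcf7 (0.38), Lef1 (0.39), Foxo1 (0.44), Foxp1 (0.98), Pcna (0.66), H2-K1 (0.37), Bcl2 (0.79), Ldha (0.44), Actb (0.80) and Cd8b1 (0.54). Median ratio scaling turned Crls1 (0.13), Pxmp4 (0.17), Ebi3 (0.16) and Foxp1 (0.11), none of them called in TPM. Leaving out 1 library turned Crls1 (-0.19 to 0.01, above 0 without blood replicate 2), Pxmp4 (-0.15 to 0.05, above 0 without node replicate 1) and Ebi3 (-0.16 to 0.01, above 0 without blood replicate 1 or node replicate 2). Leaving out 1 library ended the calls of Hist1h4b, Hsp90b1, Dhcr7, Trat1, Tnfrsf1b, Klrg1, Ccnd3, Bcl2 and Cd8b1, with adjusted p between 0.052 and 0.132 by limma, and gave Fyb a call (0.0493, without blood replicate 3). The cause of these shifts was not tested. Standard errors were largest for the lowest genes: at 10 to 20 TPM in node the median standard error was 0.239, against 0.052 at 500 TPM and above. The part of depth in this was not tested.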
